A study of Mus musculus with 576 samples.

Results

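A set of 9 genes of the acinar lineage was described in the mouse dorsal pancreas at E12.5, chosen by symbol: the digestive enzymes and their partners Cpa1, Cpb1, Cel, Pnliprp1 and Clps, the secretagogue receptor Cckar, and the transcriptional regulators Rbpjl, Nr5a2 and Bhlha15. All 9 members are among the 36658 genes listed in each of the 3 count tables. Their level, their detection and the order in which they were found in single cells were described in the epithelial cells of the Prox1-GFP line, taken as passing cells with Epcam, an epithelial adhesion molecule, at 20 CPM or more (CPM, counts scaled to 1000000 in each cell). This gave 59 epithelial cells on plate 8A and 49 on plate 8B, among 549 passing cells of the whole series.

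Smart-seq2, in which each sorted cell in a well yields its own library, was run on GFP+ cells of 3 lines on a C57BL/6J background. Prox1-GFP embryos carry the transgene Tg(Prox1-EGFP), a reporter of Prox1. In Nkx2.5-Cre;mTmG and Nkx3.2-Cre;mTmG embryos the Cre allele switches the R26 mTmG reporter to GFP in cells that have expressed Nkx2.5 or Nkx3.2 and in their descendants. Each line filled 2 plates of 96 wells, embryos of both sexes were mixed, and no animal or litter is named. Each line was therefore treated as 1 sample, single cells were not taken as its replicates, and nothing was tested. In the Prox1-GFP line 93 cells of plate 8A and 92 of plate 8B passed the filters. The epithelial cells had a median of 829393 counts (474414 to 1237640), and the 77 Prox1-GFP cells with Epcam under 20 CPM (Epcam-low cells) had a median of 776840. Library numbers of the Prox1-GFP cells form a series of their own, and a difference between lines cannot be told apart from one between library series.

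The epithelial label was checked against markers. Beside Epcam, which made the split, Cdh1, Krt8, Krt18, Krt19, Cldn6, Cldn3, Pdx1, Foxa2 and Gata4 were each at least 10-fold higher in epithelial than in Epcam-low cells, as were 6.29% of all genes with 5 CPM or more in either group. Several of these, such as Cdh1, Cldn3 and Pdx1, reached 5 CPM only in the epithelium. The split was wide: the lowest epithelial cells had 30.3, 62.4 and 132.7 CPM of Epcam and the highest Epcam-low cell had 3.67 CPM. The epithelial cell at 30.3 CPM had no count of the other markers listed, and it was kept as epithelial. Among the epithelial cells 19 carried at least 3 of 6 endocrine genes (Neurod1, Chga, Chgb, Insm1, Fev, Pax6) at 20 CPM or more, and 89 did not. Of the Epcam-low cells 75 of 77 held the fibrillar collagen gene Col3a1, against 5 epithelial cells, and 1 Epcam-low cell carried 5 endocrine genes with no count of Epcam or Col3a1. The summed level of the 10 epithelial markers had a median of 0 in Epcam-low cells. In the highest of them it was 4603 CPM, above the epithelial median of 4133 CPM.

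Acinar cells make, store and secrete the enzymes that digest protein, fat and starch in the gut. They arise from the tips of the branching pancreatic epithelium, where early tip cells are still multipotent, while the trunk behind them gives duct and endocrine cells. A trimeric complex of Ptf1a, an E-protein and Rbpj, later replaced by its relative Rbpjl, drives acinar genes through a paired E-box and TTCCCA-type box, with the nuclear receptor Nr5a2 as a partner. Bhlha15, also known as Mist1, organizes the secretory machinery of the mature cell.

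Up to 250 bases before the start of transcription are shown for members that were found together in cells, and for Cpb1, which was almost without counts. They come from a set of RefSeq upstream sequences on GRCm38.p6, which held 7 of the 9 members. Clps and Cckar were not in the set used. The stretches are read 5′ to 3′ on the strand of the gene. For Rbpjl the stretch stops where the gene begins in GENCODE M21, a little before the RefSeq start, and positions are counted from the RefSeq start. Cel lies at chr2:28563404-28563653 (minus strand), Rbpjl at chr2:164402944-164403140 (plus), Cpa1 at chr6:30638968-30639217 (plus), Pnliprp1 at chr19:58728637-58728886 (plus) and Cpb1 at chr3:20275734-20275983 (minus). Capitals mark the letters searched on both strands, namely the E-boxes CACCTG and CAGCTG, the box TTCCCA, and AAGGTCA, letters of the kind bound by Nr5a receptors.
Cel: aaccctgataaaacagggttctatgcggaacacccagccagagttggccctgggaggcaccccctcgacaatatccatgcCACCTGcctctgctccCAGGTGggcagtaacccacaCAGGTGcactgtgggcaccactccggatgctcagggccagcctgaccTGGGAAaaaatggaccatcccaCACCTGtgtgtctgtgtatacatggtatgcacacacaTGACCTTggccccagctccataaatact
Rbpjl: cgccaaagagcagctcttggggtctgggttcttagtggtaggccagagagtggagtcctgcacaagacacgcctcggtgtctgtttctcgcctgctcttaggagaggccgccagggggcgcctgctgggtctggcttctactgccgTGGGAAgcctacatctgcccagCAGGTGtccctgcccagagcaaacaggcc
Cpa1: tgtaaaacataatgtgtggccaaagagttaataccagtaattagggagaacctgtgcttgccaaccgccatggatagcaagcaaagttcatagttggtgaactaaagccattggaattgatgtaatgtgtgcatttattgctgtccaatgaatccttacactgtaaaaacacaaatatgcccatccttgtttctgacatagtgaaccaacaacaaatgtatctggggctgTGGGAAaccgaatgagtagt
Pnliprp1: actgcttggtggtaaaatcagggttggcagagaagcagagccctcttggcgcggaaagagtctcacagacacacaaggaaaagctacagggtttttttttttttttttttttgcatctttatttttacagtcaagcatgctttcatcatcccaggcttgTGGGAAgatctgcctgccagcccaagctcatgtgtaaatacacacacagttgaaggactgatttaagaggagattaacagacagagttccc
Cpb1: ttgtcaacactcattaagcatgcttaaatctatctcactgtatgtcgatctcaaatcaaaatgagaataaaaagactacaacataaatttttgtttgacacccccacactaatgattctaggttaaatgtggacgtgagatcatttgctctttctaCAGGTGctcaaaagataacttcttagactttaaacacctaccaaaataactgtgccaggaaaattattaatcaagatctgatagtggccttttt

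Cel held 4 copies of CACCTG, 1 TTCCCA and 1 AAGGTCA, whose first bases lay between 170 and 28 bases before the start. Rbpjl held 1 TTCCCA and 1 CACCTG, the latter beginning 82 bases before the start and the former farther upstream. Cpa1 and Pnliprp1 each held 1 TTCCCA, at 20 and 91 bases before the start, and no E-box. Cpb1 held a CACCTG only. Not printed are Bhlha15, with 2 copies of CACCTG, and Nr5a2, whose 2 alternative starts held 1 CACCTG and none. No member window held CAGCTG. Of all 32851 windows of this length, 17.2% held CACCTG, 13% CAGCTG, 21.6% TTCCCA and 4.08% AAGGTCA, and 6.31% held an E-box together with TTCCCA. These are matches of letters and were not tested as sites.

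In the annotation of the same build (GENCODE M21), the enzyme genes are Cpa1, for carboxypeptidase A1, at chr6:30639218-30645363, Cpb1, for carboxypeptidase B1, at chr3:20248264-20275733, Cel, for bile salt-dependent lipase, at chr2:28555795-28563403, and Pnliprp1, a pancreatic lipase-related protein, at chr19:58728887-58744169. Clps, for colipase, the cofactor of pancreatic lipase, is at chr17:28558149-28560766, and Cckar, for the cholecystokinin A receptor, at chr5:53697776-53707705. The regulators are Rbpjl at chr2:164403141-164415448, Nr5a2 at chr1:136842571-136960448 and Bhlha15 at chr5:144190286-144194441. Exons of Rbpjl overlap those of Matn4, a matrix protein gene on the opposite strand, which was at 51.9 CPM in the epithelial cells. The library kit does not mark strand, so reads from the shared exons cannot be told apart.

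Of the 9 members, 8 stood above 5 CPM in the epithelium, and 8 of the 8 with at least 5 CPM in either group were at least 10-fold higher there than in Epcam-low cells, against 6.29% of the 12411 genes compared. The median ratio, with lower bounds in place of 5 of the ratios, was 1077 for these members and 1.01 for all genes compared. Cpa1 and Clps also passed the floor of 5 CPM in Epcam-low cells, at 27 and 32.4 CPM. The other members compared passed it only through the epithelium, where a high level is what let them in. This count therefore has no weight of its own. Cel, Pnliprp1, Cckar, Rbpjl and Nr5a2 had under 3 counts in all 77 Epcam-low cells together, and each of their ratios is a lower bound set by 3 counts over that group. The ratios carry no replicate error, since each line is 1 sample. The ninth, Cpb1, was not compared, with 3 counts among 91207311.

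Cpa1 was at 982 CPM in the summed epithelial cells (95% Poisson interval 975 to 988, counting of reads only) and 27 CPM in Epcam-low cells, a ratio of 36.4. Single epithelial cells ranged from 0 to 14413 CPM with a median of 147.7 CPM, and 58 of them had at least 100 CPM. The highest cell carried 15.6% of all Cpa1 counts. Epcam-low cells had a median of 0. Their highest cell, at 697 CPM, was the one with 5 endocrine genes, and the next had 265.8 CPM. The cells of the 2 groups thus overlapped above the epithelial median as well as at 0.

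Clps was at 469 CPM in the epithelium (465 to 474) and 32.4 CPM in Epcam-low cells, a ratio of 14.5. The level in Epcam-low cells came almost whole from 1 cell on plate 8A, the one with 5 endocrine genes, which had 2485 CPM of Clps, 2865 CPM of the endocrine granule gene Chga and 697 CPM of Cpa1. Without this cell Clps in the Epcam-low cells was at 0.0173 CPM and Cpa1 at 18.1 CPM. Within plate 8A, which holds this cell, Clps was at 560 CPM in epithelial and 78.1 CPM in Epcam-low cells, under 10-fold. Epithelial cells ranged from 0 to 7455 CPM of Clps around a median of 138.1 CPM. A cell is said to hold a gene when it has at least 1 count of it. Clps was held by 84 epithelial and 2 of 77 Epcam-low cells. That is the most of any member over all epithelial cells, but without the cells with endocrine genes Nr5a2 was held by 72 and Clps by 66, and on plate 8A by 44 and 41.

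Pnliprp1 was at 202 CPM (199 to 205) in the epithelium, with single cells from 0 to 2467 CPM and a median of 23.8 CPM. Epcam-low cells held 2 counts of Pnliprp1 in all, and the epithelial level was at least 3939-fold higher. Cel was at 65.3 CPM (63.7 to 67), with a median of 0 and a highest cell of 771 CPM, and Epcam-low cells held no count, a ratio of at least 1274. Of the enzymes other than Cpb1, Cel was held by the fewest cells, 31, of which 21 had at least 100 CPM. Taken as 3 of 77 cells, a count of 0 in Epcam-low cells allows a share of cells holding Cel of up to 3.9%. The upper end of the exact binomial interval is 4.68%. Cells that express Cel without giving a count are covered by neither.

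Cpb1, which encodes another carboxypeptidase of the mature pancreas, stood at 0.0329 CPM (0.00678 to 0.0961) in the epithelium. It was held by 2 of the epithelial cells, with at most 2.12 CPM, and no Epcam-low cell did. The highest Cpb1 level of the series was 171.4 CPM in 1 cell of the Nkx3.2 line that had 567 CPM of Col3a1 and no Epcam. That line's cells with Epcam under 20 CPM stood at 0.859 CPM of Cpb1, and at 0.0428 CPM without this cell.

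Cckar, the receptor through which cholecystokinin triggers enzyme release, was at 249 CPM (246 to 252) and absent from the counts of Epcam-low cells, a ratio of at least 4850. Its epithelial cells ranged from 0 to 1709 CPM with a median of 69.1 CPM, and 60 held it. The receptor thus had counts in about as many cells as the enzyme Pnliprp1, which 56 held. Its relative Cckbr, the gastrin receptor, was at 6.44 CPM in 14 cells.

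Among the regulators, Rbpjl was at 95.2 CPM (93.2 to 97.2), ranged from 0 to 517 CPM with a median of 41.2 CPM, and was held by 63 cells. Nr5a2 was at 45.1 CPM (43.8 to 46.6), ranged from 0 to 257 CPM with a median of 22.7 CPM, and was held by 76 cells. Neither had a count in Epcam-low cells, which gave ratios of at least 1857 and 880. Bhlha15 was at 7.6 CPM (7.04 to 8.19), was held by 13 cells with a highest cell of 140 CPM, and was at 0.0684 CPM in Epcam-low cells, a ratio of 111.1. Only 3 cells had at least 100 CPM of Bhlha15.

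**Figure D1:**
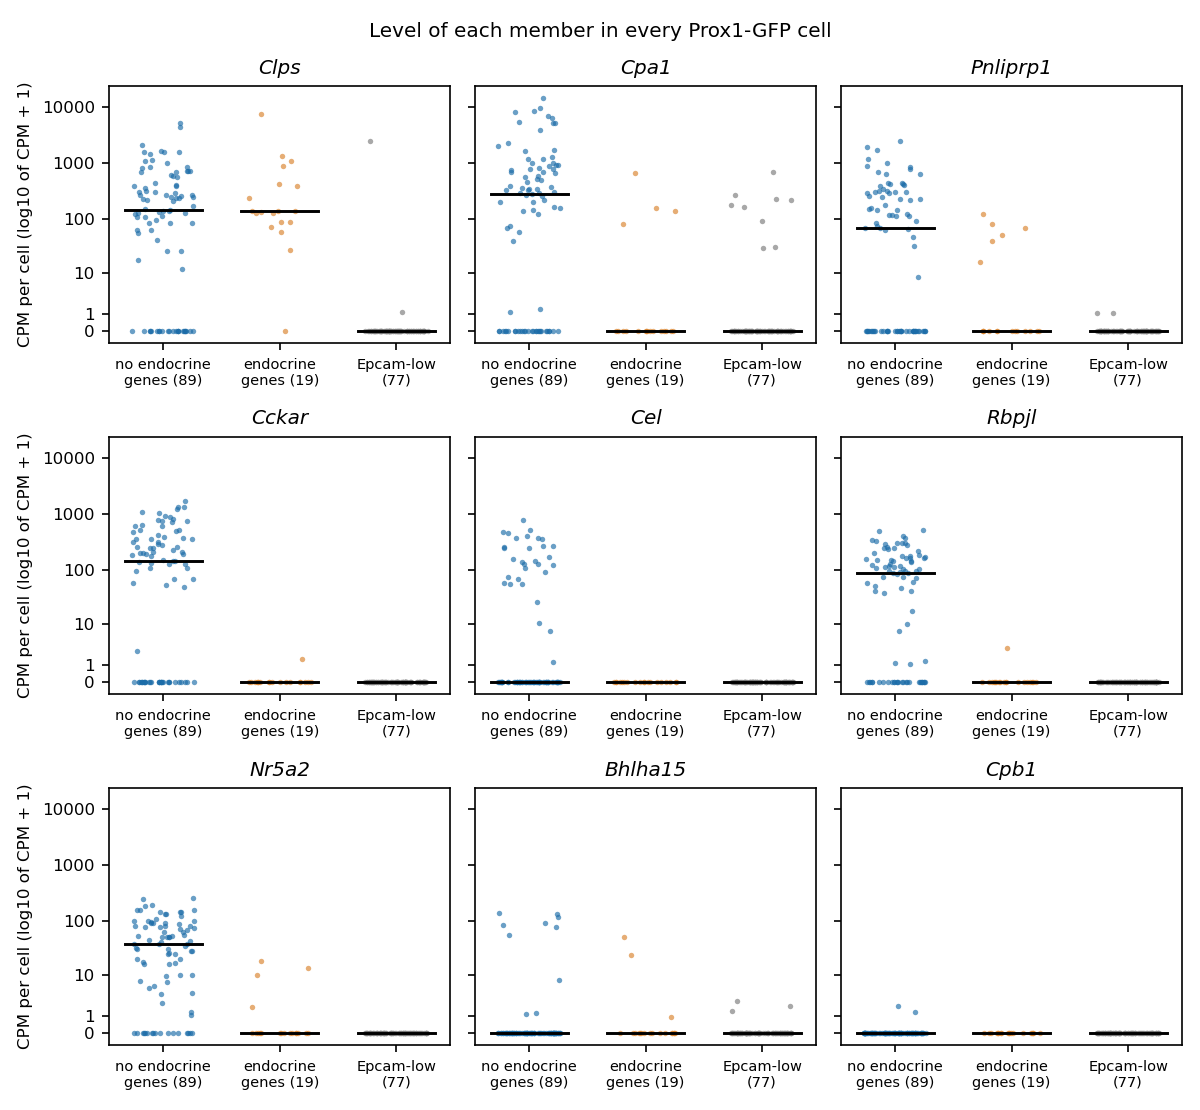
CPM of each member in every passing Prox1-GFP cell, on an axis of log10 of CPM + 1, for epithelial cells without endocrine genes (89), epithelial cells with them (19) and Epcam-low cells (77). Points are cells and bars are medians over cells. Clps is the only member with a median above 0 in the cells with endocrine genes, and Cckar, Rbpjl, Nr5a2, Cel and Cpb1 have no count in Epcam-low cells.

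Levels of different genes were compared only per length, as summed epithelial CPM per kilobase of exons. Clps led with 768, followed by Cpa1 with 561, Pnliprp1 with 90.9, Cckar with 67.6, Cel with 31, Rbpjl with 16.6, Nr5a2 with 7.65, Bhlha15 with 2.17 and Cpb1 with 0.01 CPM per kilobase. Each plate on its own gave this order, and so did the longest transcript in place of all exons. Neighbours were not all apart by more than the plates: Clps had 917 and 615 on plates 8A and 8B and Cpa1 had 648 and 471, and Pnliprp1 had 110.8 and 70.2 where Cckar had 72.6 and 62.3, so that these 2 pairs overlapped. The first 5 places were taken by secreted proteins and the receptor, and the 3 regulators followed.

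The order by share of cells was another one. Clps was held by 77.8% of the epithelial cells (exact binomial interval 68.8 to 85.2), Nr5a2 by 70.4% (60.8 to 78.8), Cpa1 by 60.2% (50.3 to 69.5), Rbpjl by 58.3% (48.5 to 67.7), Cckar by 55.6% (45.7 to 65.1), Pnliprp1 by 51.9% (42 to 61.6), Cel by 28.7% (20.4 to 38.2), Bhlha15 by 12% (6.57 to 19.7) and Cpb1 by 1.85% (0.225 to 6.53). Neighbours among the first 6 overlap in their intervals, so their order was not resolved step by step. The intervals of Cel and Bhlha15 lie below all 6 and only just apart from each other, at 20.4 and 19.7. All members were read in the same cells of 1 line, so this is a description and not a test. Of the 9 members, 6 were held by at least 50% of the cells, where 61.2% of all genes with 5 CPM or more were, so this count is near the background. With every cell thinned to 100000 counts, 83 cells held Clps, 68 Nr5a2, 62 Cpa1, 59 Cckar, 58 Rbpjl, 55 Pnliprp1, 29 Cel, 10 Bhlha15 and 1 Cpb1, and no cell was shallower than this depth. The order of Nr5a2 and Cpa1 was not stable: at equal depth 40 and 32 cells held them on plate 8A and 28 and 30 on 8B, and 63 cells each had 10 CPM or more. All cells are of 1 day, so an order of detection over cells is not an order in time.

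The cells with endocrine genes held Clps and had little of the others. In the 19 cells Clps was held by 18 and stood at 658 CPM, against 66 of 89 cells and 430 CPM in the cells without endocrine genes. A single cell on plate 8A, with 7455 CPM, held 56.1% of these Clps counts, and without it the level was 304 CPM. The quartiles over cells were 89.1 and 408 CPM with and 0 and 437 CPM without endocrine genes, so the groups overlapped through most of their range.

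Of the 8 members compared, 6 were at least 10-fold higher in epithelial cells without than with endocrine genes, against 6.09% of all genes compared in this way. Cel, Cckar, Rbpjl and Nr5a2 passed the floor of 5 CPM only through the group where they were high, so that count has no weight of its own. Cpa1 was at 1176 CPM without and 53 CPM with endocrine genes, where 4 of 19 cells held it. Pnliprp1 was at 240 against 19.6 CPM, in 6 of 19 cells, and Nr5a2 at 54.2 against 1.96 CPM, in 4 of 19 cells. Cckar and Rbpjl, at 301 and 115.1 CPM without endocrine genes, had 1 and 2 counts in all 19 cells, ratios of at least 1583 and 606, and Cel, at 79 CPM, had none, a ratio of at least 416. The other two, Clps and Bhlha15, were not among the 6: Bhlha15 was at 8.29 against 4.31 CPM, in 3 of the 19 cells.

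At equal depth the epithelial cells held between 0 and 8 members. No member was found in 10 cells, 1 in 17, 2 in 15, 3 in 7, 4 in 10, 5 in 9, 6 in 15, 7 in 18 and 8 in 7. The cell at 30.3 CPM of Epcam with no other epithelial marker was among the 10. At most 2 members were held by 42 cells and at least 6 by 40 cells, with 26 cells between. The median was 5 members without endocrine genes and 2 with them, and no cell with endocrine genes held more than 3. The number of members rose with the depth before thinning with a rank correlation of 0.29 over the epithelial cells, and the part of depth in the spread was not tested.

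**Figure D2:**
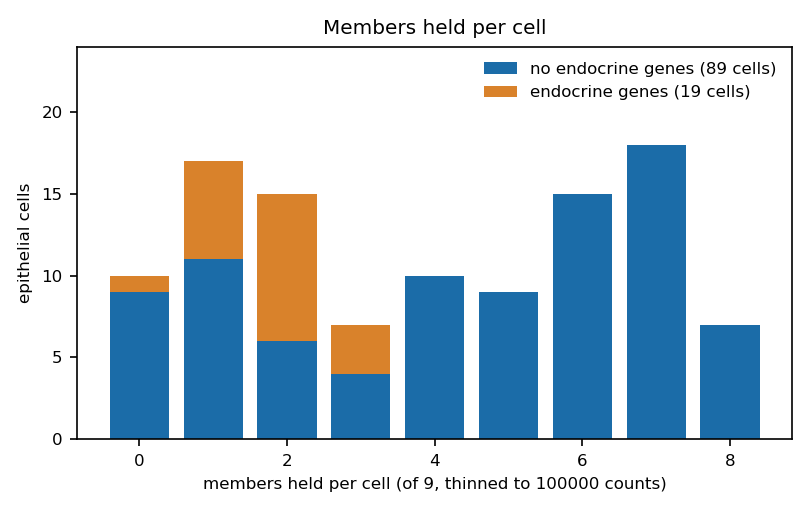
Number of epithelial cells by the number of members held after thinning to 100000 counts, stacked by endocrine genes. Cells with endocrine genes hold 0 to 3 members, and the cells without them are most frequent at 7 members (18 cells).

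The 17 cells with a single member held either Clps (9 cells) or Nr5a2 (8 cells). Endocrine genes were carried by 6 of the 9 cells with Clps alone, and none of the 8 with Nr5a2 alone did. The most frequent combination was all members but Bhlha15 and Cpb1, in 16 cells, and 9 cells held the same members without Cel. All 8 members other than Cpb1 were together in 6 cells, and 5 cells held Clps, Nr5a2, Cpa1, Cckar and Rbpjl alone. There were 35 combinations in all, of which 14 occurred in 1 cell each.

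**Figure D3:**
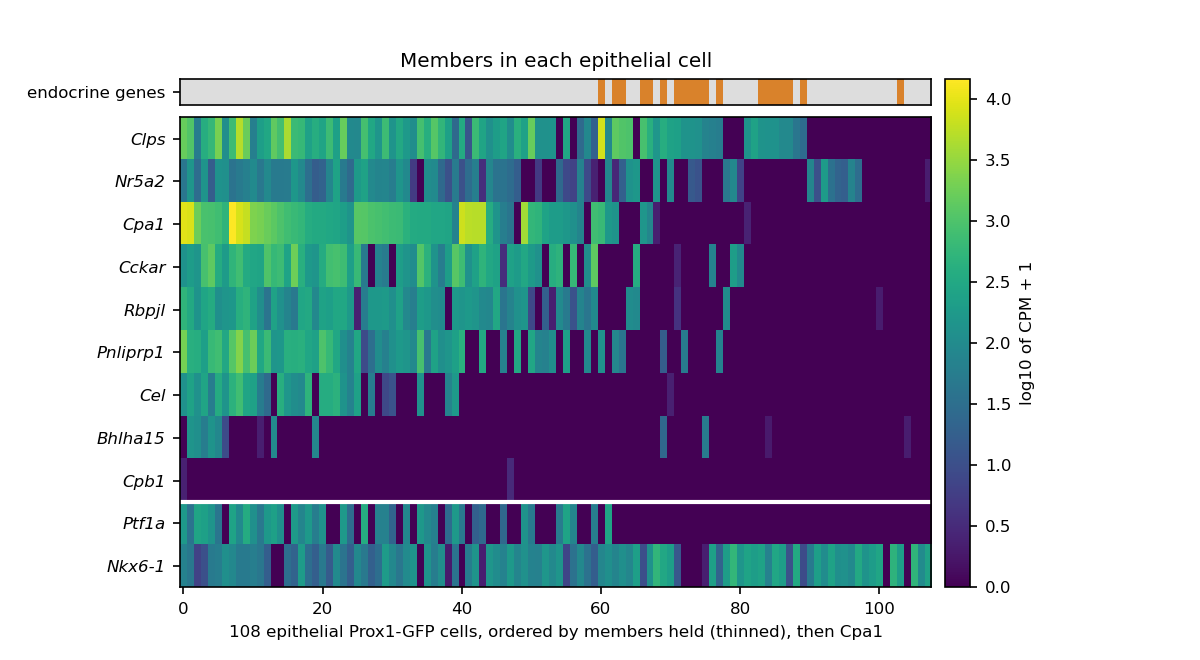
CPM of the 9 members, Ptf1a and Nkx6-1 (color, log10 of CPM + 1) in the epithelial cells, one column per cell, ordered by the number of members held. The upper strip marks the 19 cells with endocrine genes. Cel and Bhlha15 are filled mainly in the cells on the left, which hold the most members, and Nkx6-1 is filled across most of the cells.

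A rarer member was called nested in a commoner one when at least 90% of its cells also held the commoner, at equal depth. Of the 36 pairs, 28 had at least 5 cells with the rarer member, and 10 were nested. Clps was the commoner member in 5 of the 10. All 55 cells with Pnliprp1, all 29 with Cel and all 10 with Bhlha15 held Clps, as did 59 of the 62 cells with Cpa1 and 53 of the 58 with Rbpjl. Of all genes found in at least 5 cells but fewer than Clps, 8.6% were nested in Clps, and 2.87% of those in at least 20 cells.

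The other 5 nested pairs all had Cel as the rarer member, which depended on the cells with endocrine genes. Without them 18 pairs were nested, among them Bhlha15, with 8 of 8 cells, in Nr5a2, Cpa1, Cckar, Rbpjl and Pnliprp1. Over all epithelial cells the 29 cells with Cel held Pnliprp1 in 29, Cpa1 in 28, Nr5a2 in 28, Cckar in 27 and Rbpjl in 27 cells. The shares of all genes nested in these were 0.589% for Pnliprp1, 1.08% for Cpa1, 1.75% for Nr5a2, 0.838% for Cckar and 0.77% for Rbpjl. Among genes in at least 20 cells, as Cel is, the shares were 0.128% for Pnliprp1, 0.346% for Cpa1, 0.227% for Nr5a2, 0.195% for Cckar and 0.299% for Rbpjl. Cel thus lay at 90% or more within the cells of 6 other members, while 26 of the 55 cells with Pnliprp1 had no Cel. A few pairs lay just under 90%: Rbpjl in Cpa1 had 52 of 58 cells, Pnliprp1 in Cpa1 49 of 55 and Cckar in Clps 53 of 59.

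Among Cpa1, Cckar, Rbpjl and Pnliprp1 no pair was nested over all epithelial cells, and each was found without each of the others in some cells. Without the cells with endocrine genes Pnliprp1 was nested in all 3, with 47 of 50 cells in Cpa1 and 45 of 50 in both Cckar and Rbpjl. Between 45 and 52 cells held both members of such a pair. Cpa1 without Cckar was seen in 11 cells and Cckar without Cpa1 in 8, and Rbpjl without Cckar and Cckar without Rbpjl in 8 and 9. Nr5a2 and Clps, held by the most cells, were together in 54 cells, with 29 cells holding only Clps of the pair and 14 only Nr5a2. Bhlha15 was held apart from Cel in 4 of its 10 cells.

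**Figure D4:**
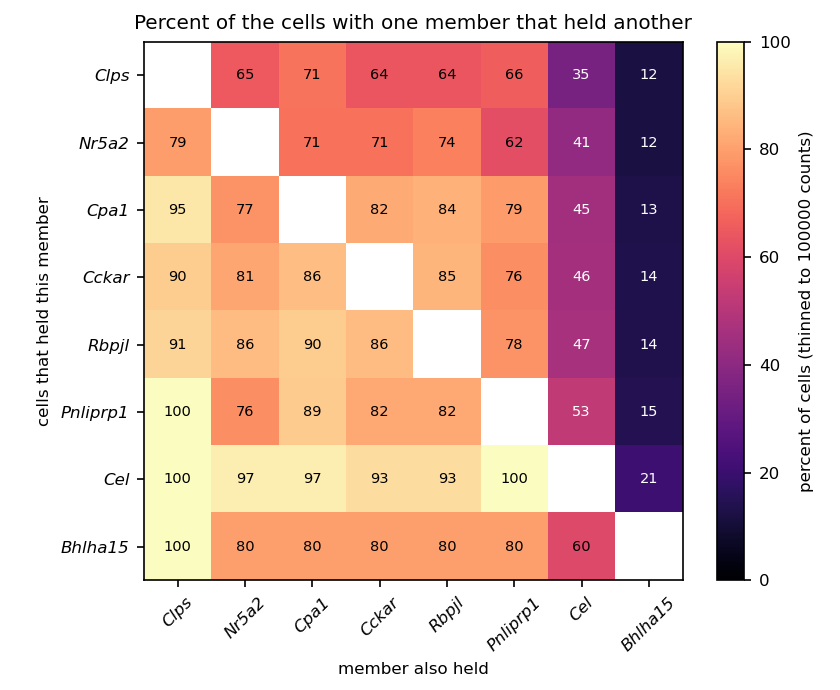
Percent of the cells with the member named on the left that also held the member named below, after thinning to 100000 counts, for the 8 members found in at least 5 cells. The row of Cel is at 93% or more for the 6 commoner members, and the column of Clps is at 79% or more.

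Most, but not all, members varied with Cpa1 over the epithelial cells. Rank correlations of CPM with Cpa1 over the epithelial cells, which come from 2 plates and differ in depth, were 0.75 for Rbpjl, 0.72 for Pnliprp1, 0.68 for Cckar, 0.60 for Clps, 0.57 for Cel, 0.44 for Nr5a2 and 0.18 for Bhlha15. Of the 8 other members 6 were thus at 0.3 or more, and Cpb1 was held by too few cells to count, where 4.48% of 14193 genes held by at least 10% of the cells were. The correlation of Cpa1 with depth was 0.20. Within plates the values for Rbpjl were 0.78 on 8A and 0.69 on 8B, and those for Nr5a2 0.49 and 0.43. Without the cells with endocrine genes Rbpjl was at 0.70, Clps at 0.66 and Nr5a2 at 0.33.

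Among the lipases and colipase the values were 0.72 between Cel and Pnliprp1, 0.64 between Pnliprp1 and Clps, and 0.42 between Cel and Clps (0.49 on plate 8A and 0.30 on 8B). Cckar and Rbpjl were at 0.74. Clps was less like the receptor (0.39 with Cckar) and Nr5a2 (0.25). Nr5a2 was highest with Rbpjl among the members, at 0.53, and Bhlha15 was at 0.23 or lower with every other member.

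Genes outside the members were ranked by the same measure. Among those most like Cpa1 were Vtn (0.84), Chst2 (0.82), P2rx1 (0.79), Rbpjl (0.75), Myc (0.73), Pnliprp1 (0.72), Ptf1a (0.69), Cckar (0.68) and Gcat (0.66). Vtn encodes the matrix glycoprotein vitronectin, P2rx1 an ATP-gated ion channel and Myc a growth regulator. Rbpjl, Pnliprp1 and Cckar are themselves members. At -0.3 or lower were 2.04% of the genes, none of them a member, and at the lowest end were the keratin gene Krt7 (-0.53), Syne1 (-0.52), Maged1 (-0.49), Cd82 (-0.48) and Sh3glb1 (-0.48), which were at -0.40, -0.39, -0.36, -0.41 and -0.42 without the cells with endocrine genes.

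The other members shared several of these neighbours. Rbpjl was most like P2rx1 (0.83), Vtn (0.83) and Chst2 (0.77), Cckar most like P2rx1 (0.75), Rbpjl (0.74) and Vtn (0.72), and Pnliprp1 had Vtn (0.80) and P2rx1 (0.75) among its nearest. Cel had Pnliprp1 (0.72) and Vtn (0.66) among its nearest, and Clps had Pnliprp1 (0.64) and the elastase gene Cela1 (0.60). Nr5a2 had other neighbours, among them Hmga2 (0.59), a chromatin protein gene of growing tissue, and Frem2 (0.59), an extracellular matrix gene. Without the cells with endocrine genes these were at 0.42 and 0.40. For Bhlha15 the highest, Pgbd5 (0.44), Dpysl3 (0.41) and Gm17241 (0.40), were held by 10.2% to 14.8% of cells. Exons of Rbpjl are shared with Matn4, whose correlation with Rbpjl was 0.59.

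Ptf1a, the founding factor of the acinar program, was at 50.8 CPM in the epithelium and had no count in Epcam-low cells. At equal depth 40 of its 41 cells also held Cpa1, 38 held Clps, 38 Rbpjl, 37 Cckar, 35 Pnliprp1, 34 Nr5a2, 23 Cel and 6 Bhlha15. None of the 41 cells carried endocrine genes. Of all 89 cells without endocrine genes, 65 held Clps, 65 Nr5a2, 58 Cpa1, 58 Rbpjl, 58 Cckar, 50 Pnliprp1, 29 Cel and 8 Bhlha15. Conversely, 22 of the 62 cells with Cpa1 and 20 of the 58 with Rbpjl had no Ptf1a.

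Trunk genes shared cells with the members. Nkx6-1, a factor of the trunk, was held by 52 of the 62 cells with Cpa1 and by 40 of the 46 without it. Its level was lower where Cpa1 was higher, with a rank correlation of -0.37 over all epithelial cells, -0.51 without the cells with endocrine genes, -0.47 on plate 8A and -0.21 on plate 8B. Sox9, a progenitor and duct factor, was held by 59 of the 62 cells with Cpa1 and by 33 of the 46 without it. Without the cells with endocrine genes these shares were 98.3% and 90.3%. The correlation of Sox9 with Cpa1 was 0.09, -0.22 without the cells with endocrine genes, -0.06 on plate 8A and 0.31 on 8B. Spp1, the osteopontin gene of the ductal trunk, was at -0.14, at -0.54 without the cells with endocrine genes, at -0.32 on plate 8A and at 0.08 on 8B. Neurog3, the factor that starts endocrine fate, was held by 7 of the 62 cells with Cpa1 and 16 of the 46 without it, and Mki67, a gene of dividing cells, by 34 and 16.

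**Figure D5:**
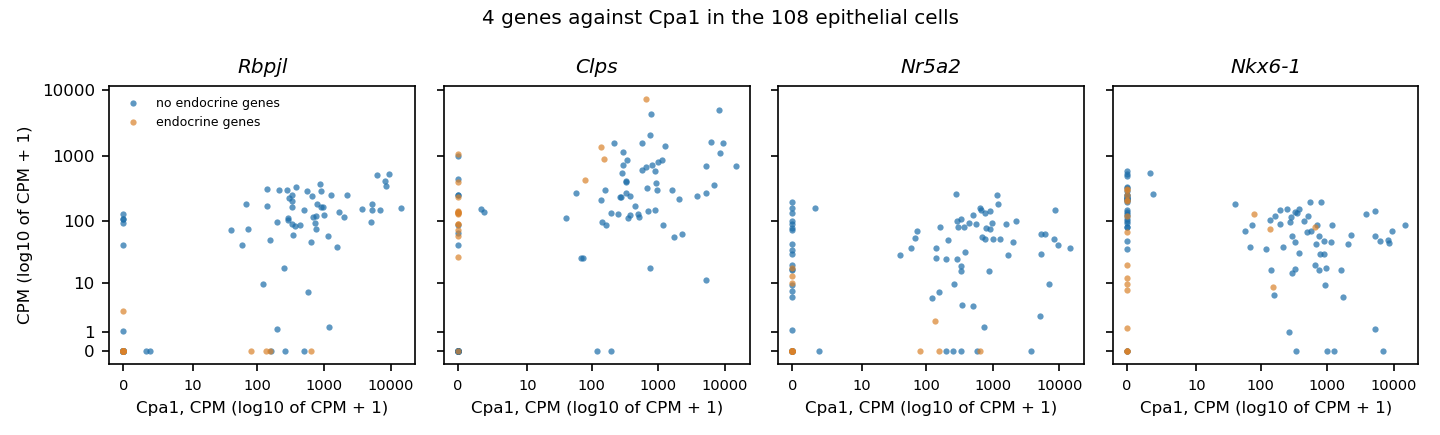
CPM of Rbpjl, Clps, Nr5a2 and Nkx6-1 against CPM of Cpa1 in each epithelial cell (axes are log10 of CPM + 1), colored by endocrine genes. Rank correlations with Cpa1 are 0.75, 0.60, 0.44 and -0.37, and cells with endocrine genes lie mostly at 0 of Cpa1 with Clps above 0.

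Genes of the same cell type from 3 other lists were read beside the members. Of 33 digestive enzymes and secreted acinar proteins, 21 had counts in epithelial cells and 12 had none. The 12 were Amy2b, Cela3a, Cela3b, Prss1, Prss3, Try4, Try10, Pnlip, Rnase1, Gp2, Dmbt1 and Tff2, so that Pnlip, the main pancreatic lipase, was at 0 where its cofactor Clps led all members per length. Amylase and trypsin genes have near-identical copies, and their counts may be split between them. The 9 of the list that passed 5 CPM were at least 10-fold higher in epithelial than in Epcam-low cells, against 6.29% of all genes compared, but 8 of them reached 5 CPM only in the epithelium, so this count has no weight of its own. Their median ratio was at least 167.6, a lower bound set by 3 counts over the Epcam-low cells. Per kilobase, Ctrb1, a chymotrypsinogen gene, was at 47.1 CPM, Spink1, a trypsin inhibitor gene, at 33.7 and Cela1 at 33.3. By share of cells, Spink1 was held by 40.7%, Cela1 by 38.9% and Ctrb1 by 21.3% of the epithelial cells.

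Of 14 acinar and tip transcription factors and partners, 6 were at least 10-fold higher in epithelial cells, against 6.29% of all genes compared. The median ratio was 3.04 for the list. All 6 reached 5 CPM only in the epithelium, so this count has no weight of its own. Ptf1a, Foxa3, Gata4, Mecom and Spdef were among them. Xbp1 (106.98 CPM per kilobase), a factor of the unfolded protein response of secretory cells, Myc (72.3) and the E-protein gene Tcf3 (35.2) were the highest per length, and none of the 3 reached 10-fold. Rbpj, which Rbpjl replaces in the acinar complex, was at 64 CPM in epithelial and 45.8 CPM in Epcam-low cells and was held by 95 epithelial cells. Of 11 secretagogue and exocytosis genes, 2 of the 8 compared, Syt7 and Cckbr, were at least 10-fold higher, with a median of 4.45, against 6.29% of all genes compared. Both passed the floor of 5 CPM only through the epithelium.

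Between the plates 1 of the 8 members compared, Bhlha15, was at least 2-fold apart, at 10.2 CPM on plate 8A and 4.89 on 8B, where 12.5% of all genes compared were this far apart. These rest on few cells: without the cell with most Bhlha15 counts, on 8A, the plates had 7.45 and 4.89 CPM, and without the cell with the highest CPM, on 8B, 10.2 and 2.41 CPM, both alternatives chosen after seeing the data. Cpa1 was at 1134 and 824 CPM, Clps at 560 and 376, Pnliprp1 at 246 and 156.1, Cckar at 267 and 229, Rbpjl at 103.2 and 87, Cel at 72.1 and 58.3, and Nr5a2 at 42.9 and 47.5 CPM. By summed CPM plate 8A was the higher for 7 of the 8, Nr5a2 being the exception. Medians over cells ran the other way for Cpa1 (141.3 on 8A and 156.9 on 8B), Clps (109.6 and 170.7), Pnliprp1 (8.43 and 47.6) and Rbpjl (38.6 and 46.3 CPM). Clps was held by 69.5% of cells on 8A and 87.8% on 8B, and Cpa1 by 55.9% and 65.3%. Gata4, a factor of the acinar list, was further apart, at 37.3 and 3.17 CPM.

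Outside the epithelium, Cpa1 was the member seen at 10 CPM or more in the most cells. It was seen in 9 of 77 Epcam-low Prox1-GFP cells (11.7%, exact binomial interval 5.49 to 21), in 11 cells of the Nkx2.5 line, of which 90 and 83 passed on its plates (6.36%, 3.22 to 11.1) and in 33 cells of the Nkx3.2 line with Epcam under 20 CPM (17.9%, 12.7 to 24.3). These cells reached 697, 505 and 733 CPM, with medians of 178.1, 155.1 and 79.3 CPM. Another member at 10 CPM or more was present in 1, 0 and 0 of them. Col3a1 was at 10 CPM or more in 8 of the 9, 11 of the 11 and 33 of the 33 cells, and 1, 0 and 0 had a count of Epcam.

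Summed over cells, Cpa1 outside the epithelium was at 2.75%, 1.33% and 2.55% of its epithelial level in these 3 groups. Clps was at 6.91%, 0 and 0, the first almost whole from a single cell. Cel was at 0 in all 3, Pnliprp1 at 0.0169%, 0 and 0, Rbpjl at 0, 0.0179% and 0.00639%, and Cckar at 0, 0.0296% and 0.0416%. Bhlha15, at 7.6 CPM in the epithelium, was at 0.0684, 0.0454 and 0.0974 CPM, and Nr5a2, at 45.1 CPM there, at 0, 0 and 0.0365 CPM. Cpb1, at 0.0329 CPM in the epithelium, was at 0, 0.0624 and 0.859 CPM, the last mostly from a single cell. The source of the Cpa1 counts was not tested.

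In the Nkx3.2 line 7 cells had 20 CPM or more of Epcam, from 23.1 to 461 CPM. All 7 had Col3a1, at 495 to 1595 CPM, none had Cdh1 or Pdx1, 4 had the keratin gene Krt8, at 104.9 to 271 CPM, and 4 had Upk3b, a gene of mesothelium, at 254 to 1150 CPM. One of them held 2 members at 10 CPM or more, with 393 CPM of Cpa1 and 58.7 CPM of Clps, and the other 6 held none. No cell of the Nkx2.5 line reached 20 CPM of Epcam.

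Markers of other cells were measured beside these levels. In epithelial cells the summed level of 7 mesenchymal markers ranged from 0 to 3272 CPM, against 0 to 12521 CPM in Epcam-low cells. The gut and stomach markers Cdx2 and Sox2 had no counts in either. Of 3 endothelial markers Cdh5 had none in either, Kdr was at 0.0658 CPM in epithelial and 6.94 CPM in Epcam-low cells, and Pecam1 was at 33.4 and 42.8 CPM and held by every cell of both groups. Vim was at 176.9 CPM in epithelial cells. Of 3 liver markers 2 were at least 10-fold higher in epithelial cells: Afp was at 177.1 CPM in 66 epithelial cells and Alb at 5.54 CPM in 8, with 1 and 0 counts in Epcam-low cells. Their part in the levels of the members was not tested.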

How the data were processed

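Estimated counts per gene, as the authors deposited them for each line, came from reads trimmed with Trim Galore 0.6.5 and assigned by kallisto on GRCm38, with gene sums made by tximport. They are not whole (36.1% of values above 0) and were rounded to whole counts here. The authors' annotation release is not given in the sources used here, and symbols, positions and lengths were taken from GENCODE M21. Smart-seq2 has no molecular identifiers, so counts are of reads and not of molecules. The Poisson intervals therefore cover the counting of reads only, and are narrower than the error of counting molecules. The binomial intervals cover the sampling of cells only. A cell was kept with 1000 genes or more, 100000 counts or more and mitochondrial genes at 30% of counts or less, which left 549 of 576. Passing cells had 224791 to 1512669 counts. No doublet caller was run. CPM was computed from summed or single-cell counts, and 0.605% of counts fell in rows without a symbol. For equal depth, cells were thinned at random without replacement to 100000 counts. Levels carry exact Poisson and shares exact binomial 95% intervals. Correlations are Spearman's. Genes entered a ratio at 5 CPM or more in either group and a correlation when held by at least 10% of cells. Named genes are the 9 members, the 8 highest per length and all genes at 0 of the acinar lists, and the genes most like each member. A few genes that this rule names are not reported here. Others, such as Rbpj, Matn4 and the trunk genes, were named for context. The members and lists were chosen with earlier results of these data known. Alternatives covered the Epcam threshold, the cell filters, cells with endocrine genes, each plate, the scaling and the thresholds. Scripts were tested on simulated data. Python 3.11.15, numpy 2.4.6, scipy 1.17.1 and pandas 2.3.3 were used.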

Additional observations from a re-analysis of the deposited data

How the results depend on the processing

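Of 60 alternatives to the counts of members or genes, 56 stayed within 1.5 times the reported count. Of the pairs of members, 18 were nested without the cells with endocrine genes and 24 at a threshold of 80%, in place of 10. The number of members 2-fold apart between plates was 0 in place of 1 with the mean of cells, and 0 without the cell with most counts of each member. It was 1 without the cell with the highest CPM. Both cells left out were chosen after seeing the data, and the cause was not tested. On plate 8A alone 7 members were at least 10-fold higher than in Epcam-low cells (Clps was not), and 7 on plate 8B (Bhlha15 was under the floor). Levels in epithelial cells moved by more than 1.5 times in 3 of 90 alternatives and shares of epithelial cells in 3 of 99. However, 49 of the 90 levels and 7 of the 99 shares fell outside the interval given for the main value. Cpa1, with an interval of 975 to 988 CPM, was at 837 CPM without the cell with most counts. Not among these, Clps in Epcam-low cells was at 0.0173 in place of 32.4 CPM without the Epcam-low cell with endocrine genes. That cell, too, was left out after seeing the data. Each line is 1 sample of sorted cells, so depth limits only counting error and no replicate error can be given. No paired analysis was possible because no animal or replicate is named and no test was made.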
